A study of Drosophila melanogaster with 596 samples.

Results

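The 149 crosses with the highest and the 149 crosses with the lowest yolk protein expression, of 596 crosses between recombinant inbred lines of Drosophila melanogaster, were compared across all other transcripts measured in the female head. The crosses were chosen by the mean of the values of Yp1 (CG2985), Yp2 (CG2979) and Yp3 (CG11129), called the yolk protein score below. The parents belong to the Drosophila Synthetic Population Resource, a panel of inbred lines whose genomes are mosaics of a small set of founder strains, and the offspring assayed carried 1 genome from each of 2 different panels. The high crosses comprised 102 from pA1 mothers mated with pB2 fathers (pA1 × pB2) and 47 from pA2 mothers mated with pB1 fathers (pA2 × pB1), and the low crosses comprised 99 and 50 of these. Every sample was a pool of about 300 heads of females aged 3 to 5 days, hybridized to a NimbleGen array. The table holds 1 sample per cross, so a cross is the unit of replication and the heads of 1 pool are not. For a pair of crosses the study also made a repeat preparation, not analysed here. Neither class received a treatment.

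Yolk proteins are the main nutrient store of the fly egg. They are made by the fat body, the insect counterpart of liver and adipose tissue, and by the follicle cells of the ovary, and are secreted and taken up by growing oocytes. The head holds no ovary, but fat body lies around the brain, and its yolk protein transcripts are a classical marker of female fat body. The genes are on the X chromosome, Yp1 and Yp2 side by side and Yp3 apart from them. In females the sex determination pathway, through Sex lethal, Transformer and the female form of Doublesex, turns them on, and nutrition, insulin, ecdysone and juvenile hormone set their level.

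The values are not log2 intensities. Each transcript was scaled by the authors to a normal distribution over the crosses after subpopulation and the first 10 principal components had been removed, so that 1 unit is about 1 standard deviation of that transcript over the crosses and 0 is about its median. Differences are given as high minus low crosses in these score units, and neither a fold change nor the level of one transcript against another can be read from them. The deposited table held 11064 transcripts of 7422 genes, with values from -3.15 to 3.15.

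The score was between 0.518 and 2.80 in the high crosses, with a median of 0.829, and between -3.15 and -0.518 in the low crosses, with a median of -0.884. Because these values chose the classes, they are described and not tested. The limits do not mark a gap, since the lowest high cross was at 0.518 and the highest cross outside the class at 0.512, while the highest low cross and the lowest cross outside that class were at -0.518 and -0.517. Yp1 ran from -0.931 to 3.15 in high crosses, with a median of 0.869, and from -3.15 to 1.54 in low crosses, with a median of -1.06. Yp2 had medians of 0.881 in high crosses and -1.01 in low crosses, and Yp3 averaged 0.966 ± 0.726 in high crosses and -0.972 ± 0.756 in low crosses (SD, n = 149 each). The classes thus overlapped for each gene alone. All 3 genes were above 0 in 107 high crosses and 2 of the 3 in the other 42, whereas none was above 0 in 116 low crosses, 1 was in 31 and 2 were in 2. Over all 596 crosses Pearson's r was 0.360 between Yp1 and Yp2, 0.388 between Yp1 and Yp3 and 0.424 between Yp2 and Yp3, as a description of crosses that have different parental lines but share founder strains. In pools of whole heads, fewer fat body cells and less yolk protein RNA per cell cannot be told apart.

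**Figure D1:**
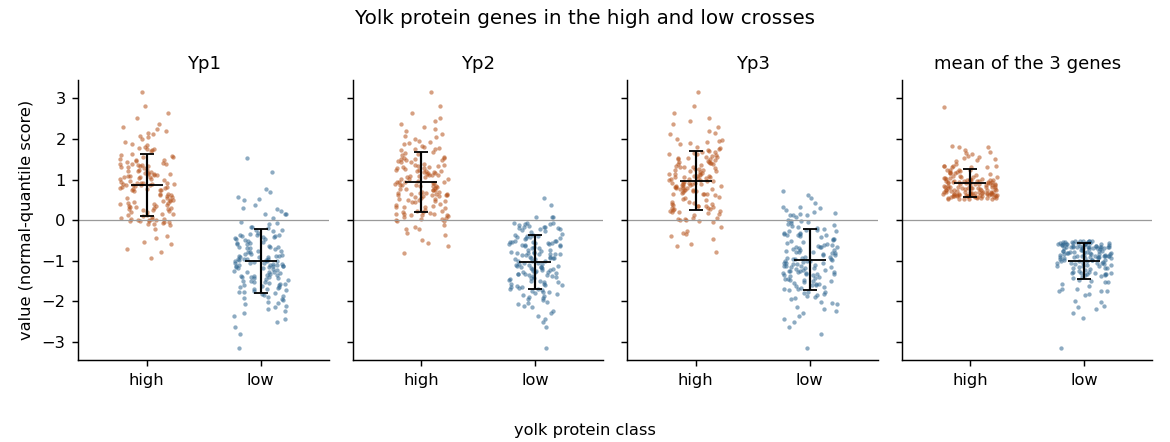
Values of Yp1, Yp2, Yp3 and their mean in each of the 149 high and 149 low crosses, in normal-quantile score units on the vertical axis; points are crosses and bars the class mean ± SD. The mean of the genes separates the classes by construction, from 0.518 upward and from -0.518 downward, while each gene alone overlaps.

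Of the 11061 other transcripts tested with limma, 663 were higher in the high crosses (5.99% of those tested) and 674 were lower (6.09%) at an adjusted p under 0.05. They belonged to 445 genes with a higher transcript and 474 with a lower one, and no gene had transcripts called in both directions. The differences were modest beside the spread over crosses. The largest were 1.08 higher and 0.811 lower, and 113 of the higher and 75 of the lower transcripts differed by more than 0.5. The standard error was 0.118 for every transcript, because the eBayes step of limma gave these similarly scaled transcripts 1 common variance. It is thus not the spread of the single transcript. The smallest difference called was 0.324. Over all transcripts the median difference was -0.0049. A set of 9 crosses had unusually large values over all transcripts, with a mean absolute value above 1.1. None was among the high crosses and 8 were among the low crosses, and their part in the results was measured by leaving them out. This gave 700 higher and 663 lower transcripts, of which 600 and 588 were also called with them.

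The gene with the largest difference was Glt, which encodes glutactin, a glycoprotein of basement membranes. Its values ran from -1.85 to 2.81 in high crosses, with a median of 0.582, and from -2.81 to 1.90 in low crosses, with a median of -0.617. It was above 0 in 102 high crosses and in 46 low crosses. Glt averaged 0.525 ± 0.884 in high crosses and -0.555 ± 0.928 in low crosses (SD, n = 149 each), a difference of 1.08 ± 0.118 (SE, adjusted p = 4.83e-16). Its difference was 0.77, 0.63 and 0.89 where the classes were taken from Yp1, Yp2 or Yp3 alone. SpdS, spermidine synthase, which makes a polyamine needed for growth and translation, ran from -2.11 to 2.81 in high crosses, with a median of 0.404, and from -3.15 to 2.20 in low crosses, with a median of -0.391. It differed by 0.85 ± 0.118 (SE, adjusted p = 2.41e-09), and Elal by the same amount, 0.85 (adjusted p = 2.41e-09), with values above 0 in 103 high crosses and 55 low crosses.

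The other genes with the largest positive differences were of mixed kinds. Among enzymes, mino, a glycerol-3-phosphate acyltransferase at the start of phospholipid and triglyceride synthesis, was higher by 0.75, and the esterase alpha-Est2 was higher by 0.69. Nepl13, of the neprilysin family of peptidases, was higher by 0.63. The zinc finger transcription factor gene chn was higher by 0.64, with all 8 of its transcripts called. Nplp2, a neuropeptide-like precursor, was higher by 0.65, and Iris, a gene derived from a retroviral envelope, by 0.69. CG33120, CG14629, CG3597, CG12811, CG42336 and CG2736 were higher by 0.77, 0.73, 0.71, 0.70, 0.66 and 0.65. All of these passed the test, with adjusted p from 2.41e-09 to 2.64e-05 outside Glt, and in each of them high and low crosses overlapped over most of the range.

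The gene lowest in high crosses was spi, which encodes Spitz, the main ligand of the epidermal growth factor receptor. Its values ran from -2.64 to 1.81 in high crosses, with a median of -0.400, and from -2.53 to 3.15 in low crosses, with a median of 0.450. It was above 0 in 49 high crosses and 102 low crosses. It averaged -0.385 ± 0.856 in high crosses and 0.423 ± 0.972 in low crosses (SD, n = 149 each), a difference of -0.81 ± 0.118 (SE, adjusted p = 1.67e-08). In a short list of the ligands of this receptor and the genes that process them, compiled after the values were seen, 3 of 7 transcripts were lower (42.9%, against 6.09% of all transcripts) and none higher. Beside spi these were S, or Star, at -0.38, and rho, a rhomboid protease, at -0.35, which export and cleave the Spitz precursor. The count includes spi, whose value was known when the list was made, and tests nothing. Within pA1 × pB2 1 of the 7 was lower and within pA2 × pB1 none, and classes from Yp1, Yp2 or Yp3 alone gave 1, 2 and 2. The gene for another ligand, grk, was at 0.27 and did not pass the test (adjusted p = 0.111).

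GILT1, a lysosomal thiol reductase of the gamma-interferon-inducible type, came next at -0.78 ± 0.118 (SE, adjusted p = 6.74e-08), with 50 high crosses and 96 low crosses above 0. Tsp42Ed, a tetraspanin, was at -0.67, Ist1, a partner of the ESCRT membrane-sorting machinery, at -0.61 with 5 of its 6 transcripts called, and Cyt-b5, the electron donor cytochrome b5, at -0.60. Several of the other genes act in protein turnover, folding or RNA processing. RagA-B, a Rag GTPase that carries the amino acid signal to the TOR kinase at the lysosome, was at -0.65 (adjusted p = 1.61e-05). CSN5, the catalytic subunit of the COP9 signalosome, was at -0.65, SmE, of the core ring of spliceosomal particles, at -0.65, and Pfdn1, a subunit of the chaperone prefoldin, at -0.62. CRMP was at -0.63. CG2004, CG3505, CG33110 and CG17803 were at -0.68, -0.66, -0.63 and -0.63.

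**Figure D2:**
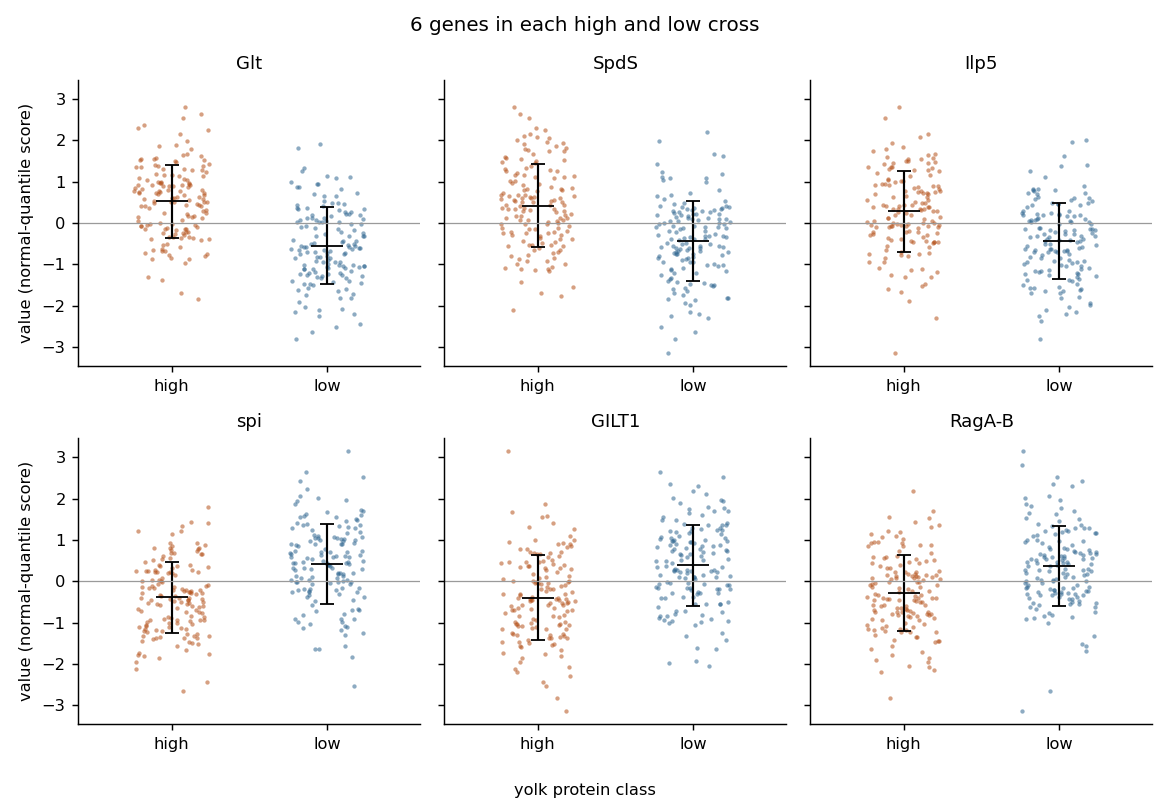
Values of Glt, SpdS, Ilp5, spi, GILT1 and RagA-B in each of the 149 high and 149 low crosses, in normal-quantile score units on the vertical axis; points are crosses and bars the class mean ± SD. Glt, SpdS and Ilp5 are shifted up in high crosses and spi, GILT1 and RagA-B are shifted down, with wide overlap in every panel.

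The crosses between the classes showed how far each gene followed the score. The mean of Glt was -0.555, -0.081, 0.129 and 0.525 over 4 groups of 149 crosses ordered from the lowest to the highest score, a steady order, and that of spi was 0.423, 0.105, -0.153 and -0.385. CG2004 and Tsp42Ed also kept 1 order over these groups. Others did not. The mean of chn was -0.299, 0.069, -0.0999 and 0.336, and that of GILT1 was 0.392, -0.0367, 0.0523 and -0.392, so that these genes differed at the extremes and were without order between them. Within the 298 middle crosses a slope on the score was called for 3 higher transcripts (0.0271% of those tested) and 1 lower transcript (0.00904%), over scores from -0.517 to 0.512. The higher ones were CG33120 and both transcripts of CG42336. Of the 663 transcripts higher in high crosses, 494 had a positive slope in the middle crosses (74.5%), and of the 674 lower ones 526 had a negative slope (78.0%), while 5588 of the 9724 transcripts not called had the sign of their own difference (57.5%). The slope reached an unadjusted p under 0.05 with the same sign for 12.5%, 11% and 5.22% of these transcripts. Among genes named above, spi had a slope of -0.58 per unit of score in the middle crosses (p = 0.00319 before adjustment, limma) and Glt one of 0.42 (p = 0.0327 before adjustment), and neither passed after adjustment.

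**Figure D3:**
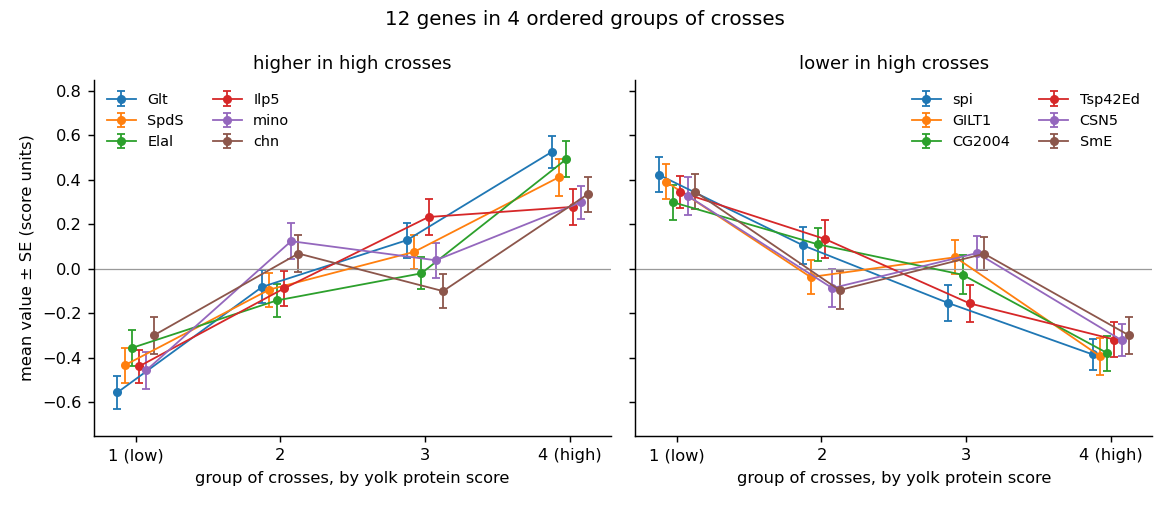
Mean value ± SE, in score units, of 12 genes over 4 groups of the 596 crosses ordered by yolk protein score, with the low crosses as group 1 and the high crosses as group 4. Glt and spi keep a steady order over the groups, while chn, mino, GILT1, CSN5 and SmE differ mainly between the outer groups.

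The differences were next taken within each subpopulation cross. In pA1 × pB2, with 102 high and 99 low crosses, 398 transcripts were higher (3.6%) and 333 lower (3.01%). In pA2 × pB1, with 47 high and 50 low crosses, 44 were higher (0.398%) and 19 lower (0.172%). Fewer crosses entered the second fit, and its standard errors were larger. Of the transcripts called in pA1 × pB2, 328 of 398 higher and 282 of 333 lower ones had the same sign in pA2 × pB1, and 19 higher and 7 lower transcripts were called in both. Glt differed by 1.08 ± 0.190 (SE) in pA2 × pB1 and by 1.08 ± 0.143 (SE) in pA1 × pB2. CG33120 differed by 1.11 in pA2 × pB1 and 0.60 in pA1 × pB2, and spi by -0.56 in pA2 × pB1 and -0.93 in pA1 × pB2. No transcript was called for a difference between the subpopulation crosses when the interaction itself was tested with limma, where 755 had an unadjusted p under 0.05 (6.83% of those tested). The 29 genes named for the largest differences all have the same sign in both, as the rule that named them requires.

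**Figure D4:**
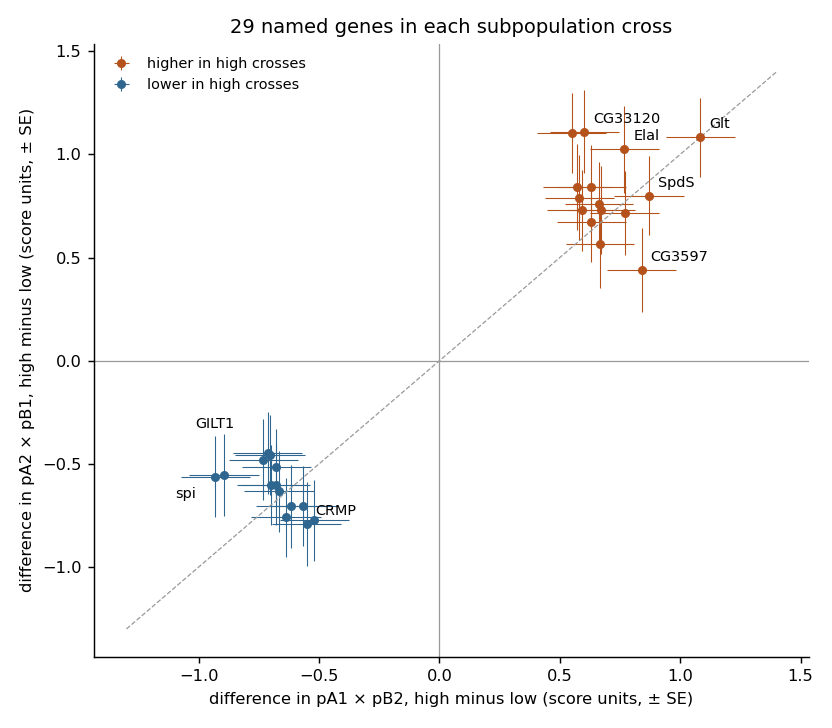
Difference between high and low crosses of the 29 genes named for the largest differences, in pA2 × pB1 (vertical axis) against pA1 × pB2 (horizontal axis), in score units ± SE; the dashed line marks equal differences. Glt lies at 1.08 on both axes, and CG33120 and spi are among the genes that differ more in 1 of the crosses, without an interaction that passed the test.

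Regulators of the yolk protein genes were examined next. Of the factors known to bind or act on yolk protein enhancers, 5 genes with 9 transcripts could be tested. Of these transcripts 2 were higher (22.2%, against 5.99% of all transcripts) and none was lower. The only gene with transcripts called was srp, the GATA factor of fat body and blood cells. It was higher by 0.44 ± 0.118 (SE, adjusted p = 0.00577) in 2 of its 5 transcripts, with 85 high crosses and 61 low crosses above 0. This difference was 0.04 where the classes were taken from Yp2 alone, against 0.37 from Yp1 and 0.54 from Yp3. Within pA1 × pB2 2 of the 9 transcripts were called higher, and within pA2 × pB1 none was. None was called higher with classes from Yp1 or Yp2 alone, in the middle crosses or after 10 further principal components were removed. Genes her and ix, which act with doublesex, were at -0.28 and -0.18, the repressor gene Aef1 at -0.24 and CrebA at -0.17, and none passed the test (adjusted p from 0.105 to 0.359). Transcripts of dsx and slbo were not analysed here.

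Among 53 transcripts of 7 sex determination genes, 9 were higher (17.0%, against 5.99% of all transcripts) and 11 lower (20.8%, against 6.09%). All 11 lower ones belonged to Sxl, the switch gene of female development, which has 24 transcripts in the table and whose largest difference was -0.40 (adjusted p = 0.0153). The higher ones were 8 of the 15 transcripts of fru, the neural branch of the pathway, at up to 0.40 (adjusted p = 0.0135), and 1 of fl(2)d, a cofactor of Sxl in splicing, at 0.39 (adjusted p = 0.0171). Transcripts of 1 gene are not independent, and these counts stand for 3 genes. For Sxl the difference was -0.55 in pA1 × pB2 and -0.07 in pA2 × pB1, and was -0.12 where Yp2 alone gave the classes. For fru it was 0.19 in pA2 × pB1 (adjusted p = 0.782) and 0.51 in pA1 × pB2 (adjusted p = 0.0154), and was 0.31 and 0.04 with classes from Yp1 and Yp2 alone and 0.23 after 10 further principal components were removed, and did not pass in these. The sex-biased fat body genes to and sxe2 were at -0.31 (adjusted p = 0.0585) and 0.13 (adjusted p = 0.517). Neither gene passed the test, and transcripts of fit, Obp99b and Cyp4d21 were not analysed here.

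Of 16 transcripts of 9 genes for secreted fat body proteins, lipoprotein receptors and ferritins, 4 were higher (25%, against 5.99% of all transcripts) and none was lower, while 5 had a positive difference. Apoltp, the lipid transfer particle that loads circulating lipoproteins, was higher by 0.60 ± 0.118 (SE, adjusted p = 6.85e-05), with values above 0 in 94 high crosses and 63 low crosses. The main lipoprotein of the hemolymph, encoded by apolpp, was higher by 0.39 (adjusted p = 0.0168). Mtp, which assembles lipoproteins in the endoplasmic reticulum, and Lsp1beta, a larval storage protein, were each higher by 0.33, near the smallest difference called. Of the other members, LpR2 and LpR1, receptors for these particles, were at -0.25 and -0.08, the ferritin subunits Fer1HCH and Fer2LCH at 0.10 and -0.12, and the iron carrier Tsf1 at -0.04, and none passed the test. The median of the 16 transcripts, 8 of which are of LpR2, was -0.16. Within pA2 × pB1 none of the list was called and within pA1 × pB2 only 1 was, Apoltp at 0.54 (adjusted p = 0.00938), and classes from Yp2 alone gave 1 higher and 3 lower. In the list of neutral lipases, relatives of the yolk proteins in sequence, 1 of 6 transcripts was called lower (16.7%, against 6.09% of all transcripts). It was CG6675, at -0.35 (adjusted p = 0.0358).

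Of 16 transcripts of 16 insulin and TOR signalling genes, 2 were higher (12.5%, against 5.99% of all transcripts) and none was lower. The list median was 0.078. Ilp5, an insulin-like peptide made by the insulin-producing neurons of the brain, was higher by 0.72 ± 0.118 (SE, adjusted p = 1.09e-06). It ran from -3.15 to 2.81 in high crosses, with a median of 0.312, and from -2.81 to 2.01 in low crosses, with a median of -0.404, and was above 0 in 88 high crosses and 51 low crosses. ImpL2, a secreted protein that binds insulin-like peptides and limits their action, was higher by 0.53 (adjusted p = 0.000518). These were the 2 genes of the list that passed. Ilp6, the insulin-like peptide made by the fat body, was at -0.30 and did not pass (adjusted p = 0.0755). The Ilp5 difference was 0.99 where Yp3 alone gave the classes, against 0.30 and 0.34 from Yp1 and Yp2. No insulin-like peptide transcript, Ilp5 among them, was called with classes from Yp1 or Yp2 alone. None was called within pA2 × pB1 or for a slope in the middle crosses either, and 1 of the 3 was higher within pA1 × pB2. In lipid synthesis and storage 7 of 27 transcripts were higher (25.9%, against 5.99% of all transcripts) and none was lower, and all 7 were of Lpin, a phosphatidate phosphatase, at up to 0.37 (adjusted p = 0.0252). This Lpin difference was 0.37 in each subpopulation cross but passed in neither (adjusted p = 0.458 in pA2 × pB1 and 0.0944 in pA1 × pB2), and it did not pass with classes from Yp1 or Yp3 alone, at 0.24 and 0.04, or after 10 further principal components were removed, at 0.17.

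The broadest group was the cytoplasmic ribosomal proteins. Of 85 transcripts of 72 genes, 34 transcripts of 26 genes were higher (40.0%, against 5.99% of all transcripts) and none was lower, 75 had a positive difference, and the median was 0.27, against -0.0049 over all transcripts. RpL21 was higher by 0.62 (adjusted p = 3.5e-05), RpL5 by 0.53, RpL34b by 0.51, RpL10Ab by 0.49 and RpL7A by 0.48, and the smallest difference called was 0.33, in RpS10b. The mean over the 72 genes was between -1.28 and 1.49 in high crosses, with a median of 0.115, and between -1.40 and 1.16 in low crosses, with a median of -0.134. It was above 0 in 87 high crosses and 61 low crosses. Ribosomal protein genes vary together, and these transcripts are not independent of each other. With the crosses of large values left out, 32 were higher and none lower. Classes from Yp3 alone gave 43 higher, those from Yp1 alone 9, and those from Yp2 alone 5 higher and 2 lower. Within pA2 × pB1 6 were higher and within pA1 × pB2 14, and none was lower in either. In the middle crosses the slope was positive for 37 of the 85, with a median of -0.021, so that the direction of the list was not seen there. Among 60 transcripts of mitochondrial ribosomal proteins, a list made after the values were seen, 2 were higher and 4 lower. These shares, 3.33% and 6.67%, lie near the 5.99% and 6.09% of all transcripts.

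Proteasome subunits stood on the other side. This list and those of the Sm, Mediator, polyamine, basement membrane, cuticle and complex I genes below were compiled after the values were seen. Their counts describe the calls and test nothing. Of 34 proteasome transcripts, 10 were lower (29.4%, against 6.09% of all transcripts) and none was higher, with a median of -0.23. Prosbeta5, which holds the chymotrypsin-like site, was lowest at -0.51 (adjusted p = 0.000912). The mean over the subunits was above 0 in 60 high crosses and 93 low crosses. Classes from Yp3 alone gave 17 lower proteasome transcripts, and classes from Yp1 or Yp2 alone gave none. Within pA2 × pB1 1 was lower and within pA1 × pB2 6, and 3 were lower after 10 further principal components were removed. The slope in the middle crosses was positive for 19 of the 34, with a median of 0.036, and there too the direction was not seen. Of 10 transcripts of Sm and LSm proteins, which form rings on spliceosomal and decay RNAs, 5 were lower and 1 higher, led by SmE and by SNRPG at -0.64 (adjusted p = 2.54e-05). Of 19 Mediator transcripts, 4 were lower (21.1%, against 6.09%) and 1 higher (5.26%, against 5.99%). MED7 was at -0.59 and MED22 at -0.55, while MED26 was at 0.41.

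Polyamine synthesis held 3 higher transcripts of 8 (37.5%, against 5.99% of all transcripts). Beside SpdS these were SamDC, which makes the aminopropyl donor, at 0.39 (adjusted p = 0.0179), and Odc1, ornithine decarboxylase, at 0.34 (adjusted p = 0.037). Among basement membrane genes, also listed afterwards, 18 of 29 transcripts were higher (62.1%, against 5.99% of all transcripts). But they came from only 2 genes, Glt and the perlecan gene trol, which had 17 of its 18 transcripts called, at up to 0.37 (adjusted p = 0.0258). The trol difference did not pass in pA2 × pB1 at 0.31, in pA1 × pB2 at 0.39, with classes from Yp1 or Yp2 alone at 0.11 and 0.09, or after 10 further components were removed at 0.22, and was -0.06 as a slope in the middle crosses. Collagen IV and laminin genes were not called. Of 18 Cpr cuticle protein transcripts 3 were higher (16.7%, against 5.99%), led by Cpr100A at 0.60 (adjusted p = 6.51e-05). Of 31 transcripts of respiratory complex I 4 were higher (12.9%, against 5.99%), led by ND-B22 at 0.55 (adjusted p = 0.000296), and 1 was lower (3.23%, against 6.09%).

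Genes of the secretory pathway, on which yolk protein export depends, had few calls. Of 32 transcripts of 22 genes 1 was higher (3.12%, against 5.99% of all transcripts) and 3 lower (9.38%, against 6.09%). A positive difference was seen in 13 of the 32, and the median was -0.045. The protein disulfide isomerase ERp60 was at -0.52 (adjusted p = 0.000703), the BiP chaperone gene Hsc70-3 at -0.43 (adjusted p = 0.00724) and the signal peptidase subunit Spase25 at -0.36 (adjusted p = 0.0297). Cnx99A, a calnexin, was at 0.33 (adjusted p = 0.0483), with 0.50 in pA1 × pB2 and -0.03 in pA2 × pB1. None of the 36 transcripts of ecdysone and juvenile hormone genes was called, and the closest was the juvenile hormone epoxide hydrolase Jheh2 at -0.32 (adjusted p = 0.0529). A positive difference was seen in 25 of the 36, with a median of 0.073, but many of these are transcripts of br. With each of the 14 genes counted once, the mean averaged -0.028 in high crosses and 0.066 in low crosses.

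**Figure D5:**
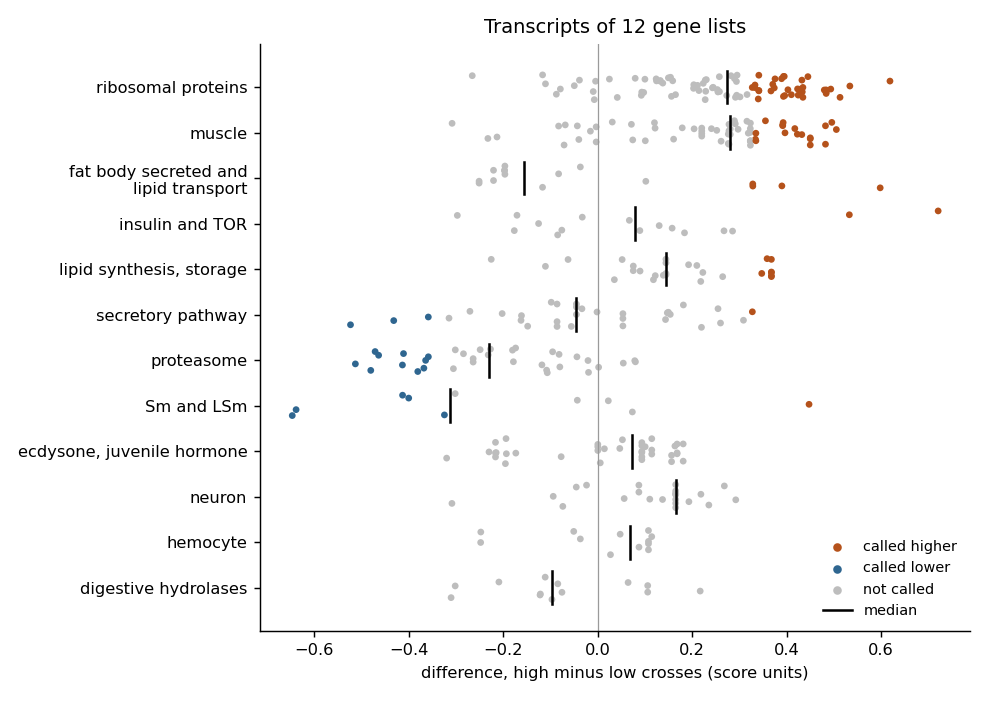
Differences between high and low crosses, in score units, of the transcripts of 12 gene lists; each point is a transcript, coloured where it passed the test, and the black bar is the list median. Ribosomal protein and muscle transcripts lie mostly to the right, with medians of 0.27 and 0.28, and proteasome and Sm transcripts to the left, with medians of -0.23 and -0.31.

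Markers of other cell types of the head were examined beside these groups. Of 65 transcripts of 18 muscle genes, 18 transcripts of 7 genes were higher (27.7%, against 5.99% of all transcripts) and none lower, with a median of 0.28. Within pA2 × pB1 1 was called and within pA1 × pB2 5, all higher, and none was called with classes from Yp1 alone, where the median was 0.16, or for a slope in the middle crosses. The giant sarcomere proteins sls and bt were higher by 0.51 and 0.43, the myosin light and heavy chains Mlc2 and Mhc by 0.50 and 0.40, and wupA, Mf and Tm1 of the thin and thick filaments by 0.48, 0.45 and 0.42. Act88F at -0.31 and Act87E at -0.23 were among the members that went the other way, and did not pass (adjusted p = 0.0636 and 0.188). Of the 65 transcripts 54 had a positive difference. Many of them are transcripts of wupA, Tm1 and Mf, which are not independent. With each gene counted once, the mean over the 18 muscle genes averaged 0.092 in high crosses and -0.084 in low crosses. It was between -1.31 and 1.18 in high crosses and between -1.28 and 1.48 in low crosses, and was above 0 in 88 and 64 of them. Its part in the differences of other genes was not tested. Of 7 photoreceptor transcripts 1 was higher (14.3%, against 5.99% of all transcripts), the scaffold gene inaD at 0.55 (adjusted p = 0.000297). No transcript passed among 23 of neurons, 4 of glia, 12 of hemocytes or 3 of oenocytes, where elav was at -0.31, moody at 0.18, NimC1 at -0.25 and FarO at 0.18, and of these 42 transcripts elav came closest (adjusted p = 0.0632). Most transcripts of these lists had a positive difference, 18 of the 23, 3 of the 4, 8 of the 12 and all 3. The list medians were 0.17, 0.090, 0.0675 and 0.035, opposite in sign to elav and NimC1. Many of the neuron transcripts are of brp and several of the hemocyte transcripts of Pxn, and these are not independent. With each gene counted once, the mean over the neuron genes averaged 0.016 in high crosses and -0.024 in low crosses. That over the hemocyte genes averaged 0.014 and 0.037. Genes of tissues outside the head did not pass either, among them 2 transcripts of ovary and eggshell genes, 6 of the male reproductive tract and 13 of digestive enzymes, with grk at 0.27, Acp36DE at -0.14 and Amy-p at -0.31. No transcript was called among 3 antimicrobial peptides, 11 heat shock genes and 17 transcripts of clock genes, where Drs, Hsp83 and cwo were at -0.24, -0.25 and -0.27. Of the 11 heat shock genes 8 had a positive difference, with a median of 0.035.

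Transcripts that differed were found on every chromosome arm. The share called higher was 6.89% on the X, where the yolk protein genes lie, and from 5.14% on 2L to 7.41% on the small chromosome 4, and the share called lower was 6.78% on the X and from 1.48% to 7.45% elsewhere. Among the 10 nearest tested genes on each side of a yolk protein gene, 40 genes with 54 transcripts in all, 5 transcripts were higher and 4 lower. Over all transcripts the shares were 5.99% and 6.09%. The neighbour counts are small, were not tested against these shares, and include 3 transcripts of Cht6 with the same difference. Cht6, a chitinase gene next to Yp2, was higher by 0.35 in 3 of its 7 transcripts, and rdgB, a phosphatidylinositol transfer protein gene next to Yp3, by 0.34. The largest difference among these neighbours was that of CG11134, the fourth tested gene from Yp3, at 0.56 (adjusted p = 0.000248). The lower ones were CG1791 and CG1889 near Yp1 and Yp2, at -0.37 and -0.36, and mus101 and amrt near Yp3, each at -0.35. The immediate neighbours on the other sides were not called.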

How the data were processed

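Per the labels and the study's methods, RNA of pooled female heads was hybridized to NimbleGen arrays, and the authors used oligo in R for background correction, quantile normalization and probe summaries, leaving out probes that responded to sequence variants. The authors then forced each transcript onto normal quantiles, regressed out subpopulation together with the first 10 principal components, and repeated the quantile step on what remained. The deposited values are thus a unitless score, in which neither signal over background nor array batches can be read. They were used as deposited, and all columns were matched to a cross (0 left out). Array and scan of a cross are not given in the sources used here.

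The yolk protein score was the mean of the rows of Yp1, Yp2 and Yp3, and the 149 highest of the 596 crosses were compared with the 149 lowest. Each of the 11061 other transcripts was fitted in limma 3.58.1 (lmFit and eBayes, R 4.3.3) with class and subpopulation cross as terms, and p-values were adjusted over all of them by Benjamini and Hochberg, with a threshold of 0.05. A number of these rows are not distinct, since 3040 transcripts had the same values as another. The table has 1 sample of each cross, so p-values rest on the spread between crosses, which share founder strains but no parental line. In the main fit this spread was a variance common to all transcripts. On simulated shifts between these classes, with 50 transcripts per size, 8% were recovered at 0.25, 84% at 0.5 and 100% at 0.75 score units. There were 14 false calls among the simulated transcripts without a shift. The simulated transcripts were independent of each other, unlike the real ones, so this count does not carry over to the real calls.

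The genes named are the 15 largest positive and 15 largest negative differences among called transcripts with the same sign at an unadjusted p under 0.05 in each subpopulation cross, all members of the yolk enhancer, sex-biased fat body and secreted fat body lists, and members of the other lists that were called or had the smallest p. Of the genes these rules give, 2 are not reported here and were left out of the list counts. Genes of the basement membrane, EGF receptor, polyamine, proteasome, Sm, Mediator, cuticle, complex I and mitochondrial ribosome lists, and neighbours of the yolk protein genes, were named with their values in view. The classes and all lists were chosen with earlier results of these data known. Symbols came from RefSeq's gene table (Release 6), in which 7349 of 7422 genes matched. Scores and counts were computed in Python 3.11.15 with pandas 2.3.3 and numpy 2.4.6.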

Additional observations from a re-analysis of the deposited data

How the results depend on the processing

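The counts of transcripts called higher and lower moved most with the choice of crosses and of the genes behind the score. They were 398 and 333 in pA1 × pB2 alone, 44 and 19 in pA2 × pB1 alone, 3 and 1 for the slope over the middle crosses, and 373 and 366 with 60 crosses per class. Classes from Yp1 alone gave 95 and 88, from Yp2 alone 294 and 348, and from Yp3 alone 893 and 810. Of the 663 and 674 transcripts called, 63 and 69 were also called with Yp1 alone, 194 and 182 with Yp2 alone and 452 and 390 with Yp3 alone. Removing 10 further principal components gave 335 and 239, and averaging the rows of a gene gave 393 and 424 of 7419 genes. The Wilcoxon test gave 637 and 631. Leaving out crosses whose median was far from 0, those with large values or the cross with the lowest score, the last 2 chosen after seeing the data, gave 594 to 700 calls in each direction. No called transcript was called in the opposite direction under any alternative.

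Single genes changed sign, without passing the test, mostly in the middle crosses, where the slope was -0.059 for mino, -0.31 for chn, 0.047 for GILT1, 0.28 for CSN5, 0.15 for SmE, -0.22 for fl(2)d, 0.19 for ERp60, 0.044 for Spase25, -0.023 for Cnx99A, -0.10 for RpL10Ab, -0.11 for RpS10b, 0.052 for Prosbeta5, 0.013 for SNRPG and -0.064 for trol. Cnx99A was at -0.029 in pA2 × pB1, Mtp at -0.042 with classes from Yp1, RpS10b at -0.092 with classes from Yp2, and Mhc at -0.0051 after 10 further components. The cause was not tested.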
